A study of Mus musculus with 12 samples.

Results

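The circadian clock genes examined here were 10, chosen by name as the genes of the core loop and its closest partners: Arntl, Clock, Per1, Per2, Per3, Cry1, Cry2, Nr1d1, Nr1d2 and Dbp. All 10 were among the 17752 genes listed, and all 10 passed the filter that left 12744 genes for testing, a mean of at least 0.5 FPKM (fragments per kilobase of transcript, scaled by depth). The 12 RNA-seq libraries came from the extensor digitorum longus (EDL), a hind limb muscle of fast-twitch fibers. They fell into 4 groups of 3, from control or knockout male mice that were sedentary or had trained by voluntary wheel running for 8 weeks from the age of 8 weeks. The knockout animals are named strNrip1-/- and the controls WT, as in the study. Per the study's methods, both carried a floxed Nrip1 allele made in C57BL/6J mice. The knockouts carried Cre recombinase under the muscle creatine kinase promoter, which is active in heart and skeletal muscle, and littermates served as controls. Nrip1 encodes the nuclear receptor corepressor RIP140.

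The mammalian clock is a transcriptional feedback loop that runs in nearly every cell, muscle fibers included. BMAL1 (encoded by Arntl) and CLOCK pair on E-box sequences and switch on the period (Per) and cryptochrome (Cry) genes, whose proteins return to block that pair. REV-ERBα and REV-ERBβ, encoded by Nr1d1 and Nr1d2, repress Arntl through elements shared with the ROR receptors, and DBP, a direct product of the loop, drives output genes through D-boxes. In a nocturnal animal the Arntl transcript and the Per, Nr1d1 and Dbp transcripts peak at different times of day, so the level of each gene depends on when a tissue is taken. All tissue in the study was taken in the early afternoon under a cycle of light and dark, and the wheels were removed before endpoints. The order of collection of single animals and the hour of lights-on are not given in the sources used here, so a spread in collection time and a spread between animals cannot be told apart.

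Some promoters of these genes hold motifs through which the loop acts. RefSeq promoter windows (GRCm38.p6) were matched for 9 of the 10 genes, 13 windows in all, and Per2 had none. They were searched on both strands for the E-box CACGTG, the variant E′-box CACGTT, the D-box TTANGTAA and the core of the ROR and REV-ERB element in its forms TAGGTCA and TGGGTCA. The stretches below show each kind of motif found, as examples of how the loop reaches its own genes. Each is written 5′ to 3′ on the strand of the gene, with the motif letters in capitals.
Arntl (chr7:113207529-113207558, plus strand): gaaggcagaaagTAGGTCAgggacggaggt
Per1 (chr11:69098771-69098800, plus strand): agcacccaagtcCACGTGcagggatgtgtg
Cry1 (chr10:85185107-85185136, minus strand): agaAACGTGaggtgccggtggtCACGTGgg
Nr1d1 (chr11:98775388-98775417, minus strand): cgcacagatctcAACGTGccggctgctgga
Per3 (chr4:151044852-151044881, minus strand): cgacccgcgcgTTATGTAAggtactcgggg
Per3 (chr4:151044805-151044834, minus strand): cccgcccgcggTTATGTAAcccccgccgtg

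The Arntl stretch lies in the annotated 5′ untranslated region, with its ROR core 31 bases after the RefSeq start. The Per1 stretch lies within the annotated span of Per1, 166 bases before a second, internal start. In Cry1 the E-box begins 60 bases and the E′-box, read here as its complement AACGTG, 79 bases before the start, outside any annotated gene. The Nr1d1 E′-box begins 28 bases before the start, also outside an annotated gene. The 2 Per3 D-boxes begin 205 and 158 bases before the start, in a stretch that the annotation also assigns to an intron of Camta1, and none of the motifs shown overlaps another. Cry2 also held an E′-box, which is not shown. Of the 13 member windows, 2 held the E-box, 3 the E′-box, 1 the D-box, and 1 and 0 the A and G forms of the ROR core. Clock, Nr1d2 and Dbp had no match in these short windows around the start, and sequence farther from the start was not searched. Over all 32851 promoter windows, 7.15% held the E-box, 4.68% the E′-box, 2.32% the D-box, and 2.61% and 3.98% the A and G forms of the ROR core. A match of letters describes the window and does not show that a factor was bound there.

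Nrip1 itself was examined first. It was higher in libraries labelled strNrip1-/- (14.9 to 20.7 FPKM) than in those labelled WT (2.53 to 4.76 FPKM), opposite to what loss of the whole transcript would give. Per the study's methods Cre removes the last exon, which holds the coding sequence, and a gene-level FPKM also takes in the exons outside the deletion and cannot separate them. Every genotype below is therefore given as labelled. Library depth, estimated from the spacing of low values, was 20.2 M to 29.0 M fragments, and of those values at least 99.0% lay within 0.15 of a whole fragment. The lowest value of any clock gene still rested on 32.3 fragments per kilobase. All 6 skeletal muscle fiber markers were present in every library. Of the 3 cardiac markers, Nppa and Ryr2 averaged under 0.5 FPKM, while Myh6 averaged 4.49 FPKM. Of the 6 adipocyte markers, only the hormone gene Lep averaged under 0.5 FPKM. The others included Fabp4 at 190 FPKM and Cfd at 39.1 FPKM. Mitochondrially encoded genes took 51.2% to 52.8% of the summed FPKM in labelled strNrip1-/- sedentary libraries and 42.2% to 47.3% in the others. In bulk tissue, fewer cells of a type and less RNA per cell cannot be told apart. The labels do not say that replicates are separate animals, so the p-values measure the spread between these libraries.

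The 10 transcripts spanned a wide range of levels. Averaged over the 12 libraries, Dbp was the most abundant at 94.8 FPKM, and its coefficient of variation was the smallest of the 10 at 7.50%. Nr1d1 followed at 54.9 FPKM, Nr1d2 at 27.6 FPKM and Per1 at 23.0 FPKM. Cry2 (16.8 FPKM), Per3 (9.30 FPKM), Cry1 (5.64 FPKM) and Per2 (4.42 FPKM) came next. The genes of the activating pair were the lowest, with Arntl at 3.03 FPKM and Clock at 1.74 FPKM. Arntl was also the most variable, with a coefficient of variation of 39.7% and a 3.77-fold range between its lowest and highest library. The output gene Dbp ranged only 1.26-fold.

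**Figure D1:**
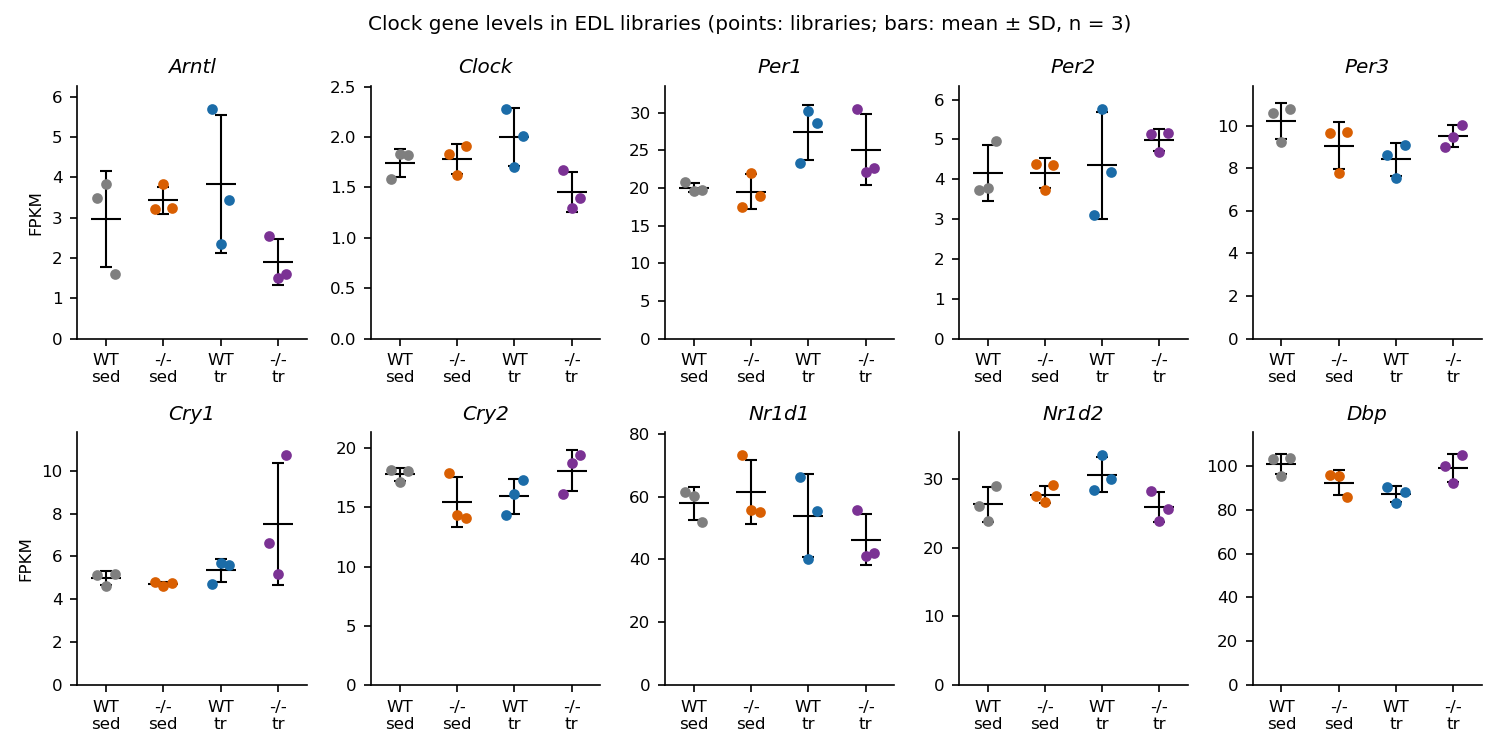
FPKM of each clock gene (vertical axes, from 0) in single libraries (points) of the 4 groups, with the mean ± SD of 3 libraries. WT and -/- are the genotype labels, sed is sedentary and tr is trained. Arntl spread from 1.51 to 5.70 FPKM, while Dbp stayed between 83.1 and 105 FPKM, and all 6 trained libraries lay above all 6 sedentary ones for Per1.

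None of the 10 clock genes passed the test in any of the 7 comparisons made with limma on log2(FPKM + 0.5). A call required an adjusted p-value under 0.05 and, except for the interaction, a fold above 1.2. The share of all tested genes called was 3.51% between labelled genotypes in sedentary libraries and 5.98% in trained libraries. With training, 0% were called within labelled WT and 0% within labelled strNrip1-/- libraries. Averaged over the other factor, 8.8% were called for genotype and 0.118% for training, and 0% showed an interaction. Of the 70 values, 19 had a p-value under 0.05 before adjustment. These were 0 for genotype in sedentary libraries (16.3% of all genes), 4 for genotype in trained libraries (21.1%), 4 for training in labelled WT (8.33%) and 4 for training in labelled strNrip1-/- (12.1%). They were 0 for genotype averaged (24.1%), 2 for training averaged (11.5%) and 5 for the interaction (7.76%). No test other than limma was run across all genes.

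**Figure D2:**
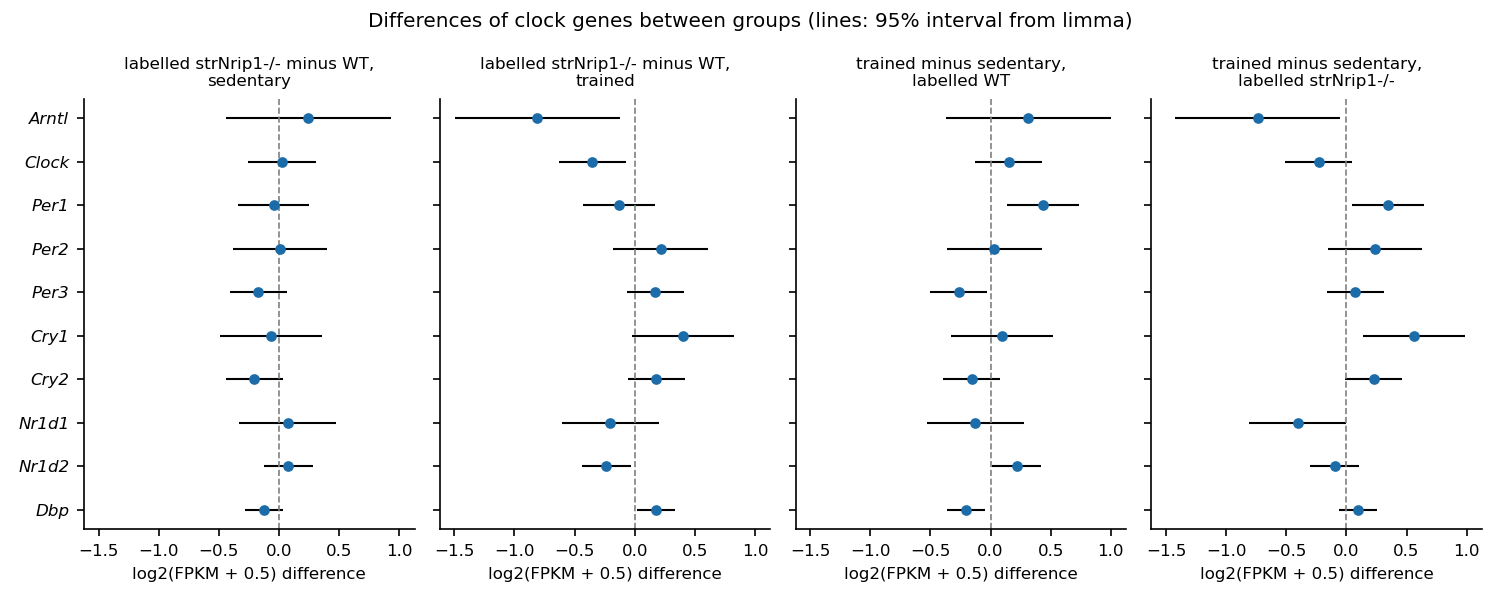
Difference of log2(FPKM + 0.5) (horizontal axes) for each clock gene in the 4 comparisons of single groups, with points for the estimate and lines for the 95% interval from limma. No gene passed the adjusted threshold. Arntl has the widest intervals, from -1.50 to -0.12 between labelled genotypes in trained libraries, and Dbp the narrowest.

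Arntl encodes the activator BMAL1, the only single clock gene whose loss stops the mouse clock. Labelled WT sedentary libraries held 3.48, 3.83 and 1.60 FPKM, and labelled strNrip1-/- sedentary libraries 3.22, 3.82 and 3.25 FPKM. In trained animals the labelled WT libraries were at 5.70, 2.35 and 3.45 FPKM, and the labelled strNrip1-/- libraries at 2.55, 1.51 and 1.61 FPKM. Thus labelled WT libraries were scattered in both conditions, 1 sedentary library was as low as the trained strNrip1-/- ones, and the labelled strNrip1-/- trained libraries lay below every library of their sedentary counterpart. In trained libraries the Arntl log2 difference between labelled genotypes was -0.81 (SE 0.313, p-value 0.0252, limma adjusted p-value 0.164), with overlapping groups. It was -0.51 (adjusted p-value 0.413) without labelled WT trained replicate 1, the highest library. Within labelled strNrip1-/- libraries training gave -0.74 (adjusted p-value 0.381), and within labelled WT 0.32 (adjusted p-value 0.847). The interaction was -1.05 (95% interval -2.03 to -0.08, limma adjusted p-value 0.627), so a difference of training response between the labelled genotypes was not shown. In sedentary libraries the difference was 0.25 (interval -0.44 to 0.93), which turned to -0.08 without labelled WT sedentary replicate 3, the low library.

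Clock, which encodes the partner of BMAL1, varied less. It was at 1.58, 1.83 and 1.82 FPKM in labelled WT sedentary and at 1.83, 1.62 and 1.91 FPKM in labelled strNrip1-/- sedentary libraries. In trained libraries the values were 2.28, 1.70 and 2.01 FPKM for labelled WT and 1.67, 1.29 and 1.39 FPKM for labelled strNrip1-/-. The sedentary groups overlapped, whereas in trained libraries every labelled strNrip1-/- value was below every labelled WT value. That log2 difference was -0.35 (SE 0.127, p-value 0.0177, limma adjusted p-value 0.132). Clock was 1 of 3 members whose labelled genotypes did not overlap in trained libraries, a pattern seen in 27.3% of all tested genes.

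Among the repressors, Per1 encodes a period protein whose gene also responds quickly to hormones and other signals. Sedentary libraries held 20.7, 19.6 and 19.8 FPKM of Per1 when labelled WT and 17.5, 22.0 and 19.0 FPKM when labelled strNrip1-/-. Trained libraries held 23.3, 30.2 and 28.7 FPKM when labelled WT and 30.5, 22.1 and 22.6 FPKM when labelled strNrip1-/-. All 6 trained libraries were therefore above all 6 sedentary ones, by a narrow margin of 22.1 against 22.0 FPKM at the boundary. Per1 was the only member with this complete separation, which 0.793% of all tested genes showed. Group means went from 20.0 ± 0.629 to 27.4 ± 3.66 FPKM in labelled WT and from 19.5 ± 2.30 to 25.1 ± 4.70 FPKM in labelled strNrip1-/- libraries (SD, n = 3 each).

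Averaged over the labelled genotypes, the Per1 log2 difference with training was 0.39 (SE 0.0962, 95% interval 0.18 to 0.60), or 1.31-fold. The limma p-value was 0.00182 and the adjusted p-value 0.138, so it did not pass. As a single value, an exact two-sided permutation of training labels within genotypes gave a p-value of 0.005, the smallest that the 400 arrangements allow, with no adjustment for the other genes. The difference was 0.43 (adjusted p-value 0.464) within labelled WT and 0.35 (adjusted p-value 0.346) within labelled strNrip1-/- libraries, and the interaction was -0.087 (interval -0.51 to 0.34). Without labelled strNrip1-/- trained replicate 1, the highest of its group, the difference within labelled strNrip1-/- libraries was 0.20 (adjusted p-value 0.517). Without labelled WT trained replicate 1, the lowest trained library of its group, the averaged difference was 0.45 with an adjusted p-value of 0.0472. The number of all genes called rose from 15 to 190 in that fit, so the library mattered well beyond Per1.

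Per2 and Per3, the other period genes, did not separate by training as Per1 did. Per2 was at 3.74, 3.77 and 4.96 FPKM in labelled WT sedentary and at 4.40, 3.73 and 4.36 FPKM in labelled strNrip1-/- sedentary libraries. In trained libraries it was at 3.10, 5.77 and 4.19 FPKM for labelled WT and at 5.15, 4.68 and 5.16 FPKM for labelled strNrip1-/-. Labelled WT trained libraries thus held both the lowest and the highest Per2 value of the series, and the trained strNrip1-/- libraries lay above their sedentary counterparts. The averaged training difference of Per2 was 0.14 on the log2 scale (interval -0.14 to 0.41).

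Per3, whose promoter carries the pair of D-boxes shown above, was at 10.6, 9.24 and 10.8 FPKM in labelled WT sedentary and 8.62, 7.55 and 9.08 FPKM in labelled WT trained libraries. The trained values lay below the sedentary ones (log2 difference -0.27, SE 0.108, limma adjusted p-value 0.537). Libraries labelled strNrip1-/- held 9.67, 7.77 and 9.70 FPKM of Per3 without training and 9.01, 9.49 and 10.1 FPKM with it, and these groups overlapped. Its interaction was 0.34 (limma adjusted p-value 0.637).

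Cry1 and Cry2 encode the cryptochromes, the stronger repressors of the BMAL1 and CLOCK pair. Cry1 was at 5.15, 4.60 and 5.19 FPKM in labelled WT sedentary and at 4.79, 4.63 and 4.75 FPKM in labelled strNrip1-/- sedentary libraries. Trained libraries were at 4.73, 5.70 and 5.61 FPKM when labelled WT and at 6.64, 5.20 and 10.7 FPKM when labelled strNrip1-/-. A single library, labelled strNrip1-/- trained replicate 3, was thus far above the rest. The log2 difference with training in labelled strNrip1-/- libraries was 0.56 (SE 0.193, limma adjusted p-value 0.304), and it was 0.29 without that library. Averaged over genotypes it was 0.33 (adjusted p-value 0.380, exact two-sided permutation p-value 0.035 without adjustment), and without that library it was 0.19 (adjusted p-value 0.481).

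Cry2 showed no such outlying library. It was at 18.2, 17.1 and 18.0 FPKM in labelled WT sedentary, 17.9, 14.3 and 14.1 FPKM in labelled strNrip1-/- sedentary, 14.3, 16.1 and 17.3 FPKM in labelled WT trained and 16.1, 18.8 and 19.4 FPKM in labelled strNrip1-/- trained libraries. All 4 comparisons of single groups overlapped. Its estimates had opposite signs between the training conditions, -0.21 in sedentary and 0.18 in trained libraries, with an interaction of 0.39 (limma adjusted p-value 0.621). A further gene annotated on the opposite strand covers 4.67% of the exonic bases of Cry2, and the library kit did not keep strand.

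Nr1d1 and Nr1d2 encode the REV-ERB receptors, heme-binding repressors that also bear on mitochondrial content in muscle. Nr1d1 was at 61.5, 60.2 and 51.9 FPKM in labelled WT sedentary and at 73.1, 55.8 and 55.1 FPKM in labelled strNrip1-/- sedentary libraries. Trained libraries were at 66.3, 40.1 and 55.3 FPKM when labelled WT and at 55.8, 41.1 and 42.0 FPKM when labelled strNrip1-/-. All groups overlapped, and the largest difference was that with training in labelled strNrip1-/- libraries, -0.40 on the log2 scale (SE 0.183, limma adjusted p-value 0.412). Of the exonic bases of Nr1d1, 8.55% overlap the opposite gene Thra, a thyroid hormone receptor gene at 39.0 to 51.3 FPKM, and their reads there cannot be told apart.

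With training in labelled WT libraries the log2 estimate was 0.22 for Nr1d2 (limma adjusted p-value 0.566) and -0.13 for Nr1d1 (0.901). Nr1d2 was at 26.0, 23.9 and 28.9 FPKM in labelled WT sedentary and at 27.4, 26.6 and 29.1 FPKM in labelled strNrip1-/- sedentary libraries. Trained libraries were at 28.4, 33.4 and 29.9 FPKM when labelled WT and at 28.2, 23.9 and 25.5 FPKM when labelled strNrip1-/-. Every trained library labelled strNrip1-/- was below every trained library labelled WT, though by little (28.2 against 28.4 FPKM). The log2 difference was -0.24 (SE 0.0931, limma adjusted p-value 0.172), and the interaction was -0.31 (adjusted p-value 0.627).

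Dbp encodes the D-box activator and stands for the output of the loop. Its 12 values were close together, with 103, 95.4 and 103 FPKM in labelled WT sedentary and 95.6, 95.5 and 86.0 FPKM in labelled strNrip1-/- sedentary libraries. Trained libraries were at 90.4, 83.1 and 88.2 FPKM when labelled WT and at 99.9, 92.1 and 105 FPKM when labelled strNrip1-/-. The labelled WT trained libraries were below both the labelled WT sedentary and the labelled strNrip1-/- trained libraries without overlap. The log2 difference with training in labelled WT was -0.21 (SE 0.0719, p-value 0.0153, limma adjusted p-value 0.492). That between labelled genotypes in trained libraries was 0.18 (adjusted p-value 0.179), and the interaction was 0.30 (SE 0.102, p-value 0.0121, limma adjusted p-value 0.579). Dbp shares 18.0% of its exonic bases with the opposite gene Sphk2, which was at 4.74 to 7.42 FPKM.

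Counting separations across the members, no clock gene parted the labelled genotypes in sedentary libraries (20.7% of all tested genes did). In trained libraries 3 did (27.3% of all), namely Clock and Nr1d2, lower in labelled strNrip1-/-, and Dbp, higher. With training, 3 separated in labelled WT (14.3% of all): Per1 upward, and Per3 and Dbp downward. In labelled strNrip1-/- libraries 4 separated with training (16.9% of all): Arntl downward, and Per1, Per2 and Cry1 upward. The comparisons within a labelled genotype share libraries with those between genotypes. None of the members separated all 6 libraries of each label (6.19% of all). For genotype averaged over training, the 10 estimates lay between -0.28 (Arntl) and 0.17 (Cry1), with a median of -0.039 against 0.003 for all tested genes. Both extremes rested in part on single libraries, with -0.13 for Arntl without labelled WT trained replicate 1 and 0.031 for Cry1 without labelled strNrip1-/- trained replicate 3.

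The relation between members was then examined within groups, after each gene's group mean was removed from log2(FPKM + 0.5). Of the 9 correlations with Arntl over the 12 libraries, the strongest were those with Per2 (Pearson r -0.83, Spearman rho -0.77) and Nr1d1 (r 0.76, rho 0.80). The exact two-sided permutation p-values within groups were 0.0285 and 0.0147 for r, and 0.0154 and 0.0170 for rho. After adjustment over the 9 relations both were 0.128 for r, so neither passed. Without the 2 libraries farthest from the median of Arntl (labelled WT sedentary replicate 3 and labelled WT trained replicate 1), r was -0.71 for Per2 and 0.71 for Nr1d1. Group means were not recomputed for this, so the libraries left out still shifted those kept. With recomputed means, the lowest adjusted exact permutation p-value was 0.257 without the first of these libraries alone. Without the second alone it was 0.299. Over the 12 libraries, those low in Arntl for their group tended to be high in Per2 and low in Nr1d1, without passing adjustment. Per2 did not follow this in labelled strNrip1-/- trained libraries. Their deviations were 0.38, -0.22 and -0.15 for Arntl and 0.041, -0.084 and 0.043 for Per2. Nr1d1 did not follow it in labelled strNrip1-/- sedentary libraries. Arntl and Dbp showed little relation (r 0.17, exact permutation p-value 0.626, adjusted p-value 0.704).

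**Figure D3:**
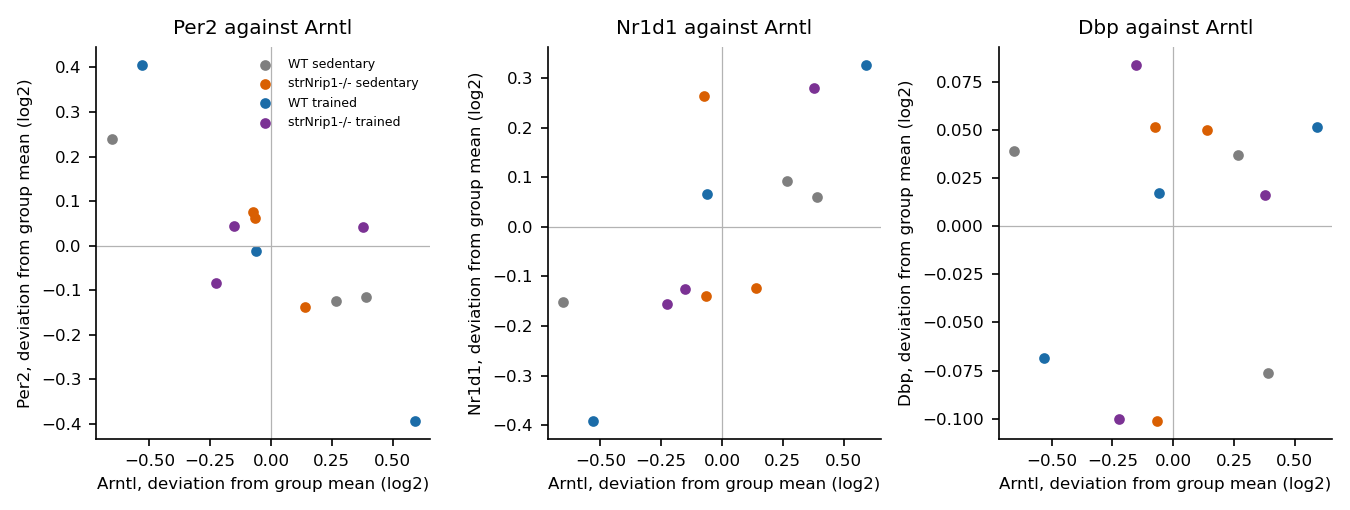
Deviation of Per2, Nr1d1 and Dbp (vertical axes) from their group mean of log2(FPKM + 0.5) against that of Arntl (horizontal axes), 1 point per library, colored by group as labelled. Points fall from left to right for Per2 (r -0.83), rise for Nr1d1 (r 0.76) and show little relation for Dbp (r 0.17); none passed after adjustment over 9 relations.

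The ratio of Dbp to Arntl FPKM, a simple reading of output against activator, ran from 15.9 to 64.9. It was 29.7, 24.9 and 64.6 in labelled WT sedentary and 29.7, 25.0 and 26.5 in labelled strNrip1-/- sedentary libraries. In trained libraries it was 15.9, 35.4 and 25.6 for labelled WT and 39.1, 61.0 and 64.9 for labelled strNrip1-/-. The trained strNrip1-/- libraries were above the other trained libraries, but 1 sedentary library labelled WT was as high. Over the same libraries Arntl ranged 3.77-fold and Dbp 1.26-fold.

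A further list of 21 clock genes covered the remaining activators, receptors, output factors and the enzymes that modify or degrade clock proteins. Of these, 18 were tested, and Npas2, Rorb and Fbxl21 were under the filter. Only Btrc, which encodes an F-box protein of the complex that degrades period proteins, was called. It was at 10.9, 11.5 and 12.1 FPKM in labelled WT sedentary and 13.3, 13.2 and 13.1 FPKM in labelled strNrip1-/- sedentary libraries, and at 12.2, 10.4 and 10.8 against 13.7, 15.2 and 14.4 FPKM in trained libraries. Every labelled strNrip1-/- library was above every labelled WT library, and 6.19% of all tested genes separated the labels in either direction. Btrc rose by a log2 difference of 0.36 in trained libraries (SE 0.0785, limma adjusted p-value 0.0213) and of 0.28 averaged over training (adjusted p-value 0.00845). The trained call was lost when only the 6 trained libraries were fitted (adjusted p-value 0.0791), and without labelled WT trained replicate 2 (0.0590) or 3 (0.0797) or labelled strNrip1-/- trained replicate 2 (0.0898) or 3 (0.0772). Rescaling to a common sum also ended the call, in trained libraries (0.0599, and 0.0813 with nuclear genes alone) and on average (0.116). On average the fold was 1.2 or less after quantile normalization and without labelled WT sedentary replicate 1, labelled WT trained replicate 2 or labelled strNrip1-/- trained replicate 2. Averaged over training, 4 of 6 skeletal muscle fiber markers were called lower and 2 of 5 endothelial markers higher in libraries labelled strNrip1-/-. Of all tested genes, 8.8% were called in either direction, and 5.98% for genotype in trained libraries. Positive estimates were 0 of 6 for the fiber markers and 5 of 5 for the endothelial ones. The part of either list in the Btrc difference was not tested. The summed muscle fiber markers were at 95912 to 117860 FPKM in labelled WT and 72405 to 94320 FPKM in labelled strNrip1-/- libraries. The endothelial ones were at 65.2 to 75.5 and 74.8 to 85.1 FPKM.

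Nfil3, a repressor that competes with DBP for D-boxes, went from 7.45 to 10.1 FPKM in sedentary to 9.85 to 26.0 FPKM in trained libraries (averaged log2 difference 0.69, SE 0.186, limma adjusted p-value 0.154). It passed only without labelled WT trained replicate 1 (0.84, adjusted p-value 0.0216). With training averaged over genotype, 14 of the 18 tested genes had positive estimates, 0 were called, and the median was 0.10 against 0.006 for all tested genes. Positive estimates over all tested genes were 6633 of 12744.

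Genes known to respond to glucocorticoids, hormones that act on Per1 among others, were listed as 10, and all 10 were tested. With training averaged over genotype, 10 of 10 had positive estimates, with a median log2 difference of 0.40 against 0.006 for all tested genes. Over all tested genes, 6633 of 12744 estimates were positive. The list was chosen with earlier results of these data known, so the shared sign is not independent support. Cebpd, a transcription factor gene, was the only one called, beside 0.118% of all tested genes. Cebpd went from 1.83 to 2.93 FPKM over the sedentary libraries to 4.50 to 10.7 FPKM over the trained ones (log2 difference 1.45, SE 0.187, limma adjusted p-value 0.0227). Its call was lost without any 1 of 8 libraries: replicates 2 and 3 of labelled WT sedentary, of labelled WT trained and of labelled strNrip1-/- trained, and replicates 1 and 2 of labelled strNrip1-/- sedentary (adjusted p-values up to 0.0927). Fkbp5, which encodes a chaperone of the glucocorticoid receptor, had trained values of 9.54, 49.3 and 15.9 FPKM when labelled WT and 12.9, 28.3 and 19.2 FPKM when labelled strNrip1-/-, against 6.61 to 15.7 FPKM in sedentary ones. In both trained groups replicate 2 held the highest Fkbp5, while Per1 was highest in replicate 2 of one group and replicate 1 of the other. The part of these genes' signal in the Per1 values was not tested.

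**Figure D4:**
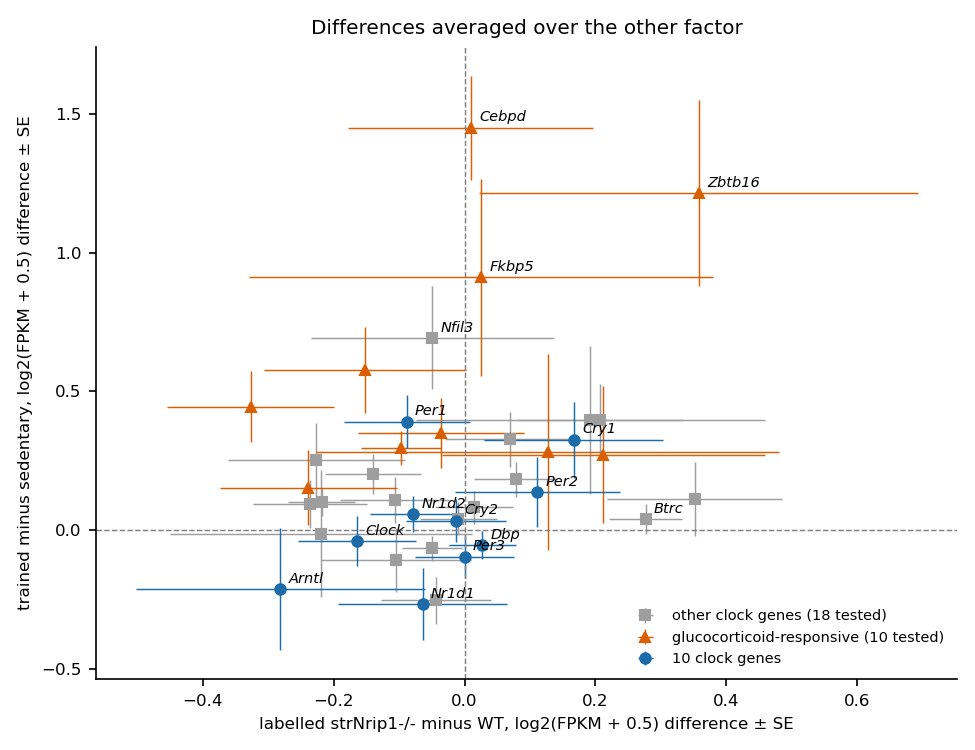
Difference of log2(FPKM + 0.5) ± SE for training averaged over genotype (vertical axis) against genotype averaged over training (horizontal axis), for the 10 clock genes (circles), 18 other clock genes (squares) and 10 glucocorticoid-responsive genes (triangles). The last all lie above 0 on the vertical axis, with Cebpd highest at 1.45, and Per1 is the highest of the 10 clock genes at 0.39.

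Among 6 temperature-responsive genes, listed because body temperature sets peripheral clocks, Cirbp was called. This gene for a cold-inducible RNA-binding protein had trained values of 49.9, 47.9 and 44.5 FPKM when labelled WT and 53.6, 67.5 and 67.2 FPKM when labelled strNrip1-/-. The groups did not overlap, as in 27.3% of all tested genes, and 5.98% of all tested genes were called in trained libraries. In these, Cirbp was higher in labelled strNrip1-/- by a log2 difference of 0.40 (SE 0.0987, limma adjusted p-value 0.0387). The difference was 0.017 in sedentary libraries (limma adjusted p-value 0.961). Averaged over training it was 0.21 and was not called (limma adjusted p-value 0.0874). The call was lost in 12 of the alternatives, among them the fit to trained libraries alone (adjusted p-value 0.0918), and without labelled WT trained replicate 1 (0.0723), 2 (0.0730) or 3 (0.132), labelled strNrip1-/- trained replicate 2 (0.146) or 3 (0.149), or labelled WT sedentary replicate 1 (0.0597), 2 (0.0568) or 3 (0.0586). Rbm3, the other cold-inducible gene of the list, went the other way in trained libraries, at 115, 131 and 119 FPKM in labelled WT and 105, 83.2 and 93.0 FPKM in labelled strNrip1-/-, and was not called.

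Of 8 muscle genes that follow the clock or BMAL1 in muscle, Dgat2, an enzyme gene of triglyceride synthesis, was called. Trained libraries held 16.5, 21.2 and 18.0 FPKM when labelled WT and 35.1, 64.4 and 51.9 FPKM when labelled strNrip1-/-. The log2 difference was 1.39 in trained libraries (SE 0.213, limma adjusted p-value 0.00415) and 1.12 averaged over training (adjusted p-value 8.04e-04). Sedentary libraries, at 11.8, 15.5 and 19.7 against 27.0, 28.7 and 28.9 FPKM, did not overlap either, but the limma adjusted p-value was 0.0528. Of all tested genes, 27.3% did not overlap in trained and 20.7% in sedentary libraries. The shares called were 5.98% in trained libraries, 3.51% in sedentary libraries and 8.8% averaged over training. Adipocyte markers, whose summed level was 170 to 212 FPKM in labelled WT sedentary and 229 to 343 FPKM in labelled strNrip1-/- sedentary libraries, ranged from 206 to 246 and from 216 to 330 FPKM in the trained groups. In labelled WT and labelled strNrip1-/- sedentary libraries, the marker Fabp4 averaged 171 and 214 FPKM. Cfd averaged 14.6 and 50.0 FPKM there, and Adipoq 1.91 and 5.67 FPKM. In the trained groups, in the same order, the means were 177 and 197 FPKM, 37.3 and 54.6 FPKM, and 4.04 and 4.28 FPKM. The part of the adipocyte markers in the Dgat2 difference was not tested.

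Finally, genes were ranked by the likeness of their pattern to Arntl and Dbp, as Pearson r of log2(FPKM + 0.5) over the 12 libraries. Most like Arntl were Zfp444 (r 0.90), Gnpnat1 (0.90) and Ncf4 (0.89), and most opposite were Edrf1 (-0.91), Hnrnpl (-0.89) and Ncln (-0.87). Most like Dbp were Car7 (0.86), Amhr2 (0.86) and Lsm1 (0.83), and most opposite were Gm10600 (-0.88), Mbnl2 (-0.86) and Smchd1 (-0.84). None of these is a clock gene, and among the members the r with Arntl was highest for Nr1d1 (0.75) and Clock (0.72) and lowest for Per2 (-0.82). These values describe 12 libraries that share group, scaling and depth, and the genes named are the extremes of 12744.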

How the data were processed

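The authors deposited 1 table of FPKM for 17752 genes in the 12 libraries. Per the labels and methods, reads from a kit that does not keep strand were quantified by the authors with Salmon 1.10.2 on mm10 and summed to genes. The authors also deposited log2 fold changes and adjusted p-values from DESeq2 1.44.0 for their own comparisons, which were not used. Here FPKM were tested as log2(FPKM + 0.5) with limma 3.58.1 in R 4.3.3 (4 group means, 12 libraries, trended eBayes, two-sided, Benjamini-Hochberg over the 12744 genes whose mean FPKM was 0.5 or more). This scale understates the change of low genes. Correlations and permutations used scipy 1.17.1. The fit was tested on simulated data. Gene positions are from GENCODE M21 on GRCm38, in which all 10 genes matched by identifier.

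The members and lists were chosen with earlier results of these data known. Named genes were all members, list genes called in any comparison, and the 3 most and least alike to Arntl and Dbp. Nfil3, Fkbp5 and Rbm3 were named after their values were seen. Alternatives changed the pseudocount, filter, scaling, variance prior, replicate block or libraries used.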

Additional observations from a re-analysis of the deposited data

How the results depend on the processing

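Over the alternatives to pseudocount, filter, scaling, variance prior, block and libraries, 24 member values were recomputed 517 times: 512 kept their direction and side of the threshold, 2 reversed and 3 newly fell under 0.05. These 3 were Per1 with training averaged, without labelled WT trained replicate 1, and the unadjusted exact permutation p-values of Per1 and Cry1 for training averaged. No Cry1 value passed after adjustment. The Arntl difference between labelled genotypes in sedentary libraries ranged from -0.082 to 0.44 when single libraries were left out, and the averaged Dbp genotype difference went from 0.027 to -0.019 after rescaling all libraries to a common sum. That rescaling moved the median of all genes by -0.14 for genotype in sedentary libraries, 0.16 for training in labelled strNrip1-/- and 0.20 for the interaction. Under it the interaction was -0.098 for Nr1d2, 0.55 for Per3, 0.60 for Cry2 and 0.52 for Dbp, the sedentary genotype difference -0.36 for Cry2 and 0.11 for Arntl, and the training difference in labelled strNrip1-/- -0.23 for Nr1d1. The number of members called with training averaged over genotype was 0 and ranged from 0 to 1 when single libraries were left out. For the other named genes, 184 of 217 alternatives kept the call or its absence, 32 lost it and 1 gained it.

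Counts over all genes moved more. Training in labelled strNrip1-/- libraries gave 0 calls, and 150 after rescaling to a common sum. Training averaged gave 15 calls, 26 after that rescaling and 28 after quantile normalization, and 1 to 190 when single libraries were left out. Genotype gave 447 sedentary and 762 trained calls, and 166 and 445 when only the compared libraries were fitted. The labels do not say whether the replicate numbers pair the samples. Same-numbered libraries deviated together with r of -0.05 to 0.20, which cannot exclude a pairing. With the replicate number as a block, 0 members were called in every comparison, and all genes gave 441, 756 and 10 calls for genotype in sedentary, genotype in trained and training averaged. The block ended the Cirbp call (adjusted p-value 0.0631). Clock and Arntl had the lowest mean levels of the members, at 1.74 and 3.03 FPKM. With 3 libraries per group, the SE of a comparison of single groups was 0.127 for Clock and 0.313 for Arntl. The wider intervals of Arntl went with its larger coefficient of variation, 39.7% against 15.3% for Clock.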
